A study of Mus musculus with 8 samples.

Results

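The Hox genes are the homeobox genes of the Hoxa, Hoxb, Hoxc and Hoxd clusters, and they were followed here in cells sorted from the mammary glands of mice with 1 or 2 disrupted copies of Axl, a receptor tyrosine kinase. Members were chosen by name alone, as every measured gene whose symbol is Hox, a cluster letter and a paralogue number. This gave 38 Hox genes, read by 50 probes, of 16593 genes measured. The 38 comprised 10 Hoxa genes on chromosome 6, 10 Hoxb genes on chromosome 11, 9 Hoxc genes on chromosome 15 and 9 Hoxd genes on chromosome 2. All mice were 16 weeks old and nulliparous, of a B6.129P2 strain with the Axl tm1Dgen allele, in which a LacZ reporter sits in the Axl locus. Heterozygotes (Axl+/LacZ) served as controls for homozygotes (AxlLacZ/LacZ), so every animal carried at least 1 LacZ allele and no wild-type group was compared. Glands of several animals were pooled, dissociated, stained with FDG, a substrate that LacZ turns fluorescent, and depleted by antibody and gate of cells bearing the blood, endothelial or myeloid antigens CD45, CD31 and CD11b. Sorting took the brightest 5% of the remaining live cells as FDG-high and the dimmest 65% as FDG-low. Each of the 4 combinations of gate and genotype was hybridised on 2 arrays, and whether these were separate pools is not stated, so that each p-value rests on array-to-array spread that may be technical.

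Hox proteins are homeodomain transcription factors that give cells their position along the body axis of the embryo. The genes lie in the 4 clusters in an order that matches their order of expression from head to tail, and genes with the same number in different clusters, the paralogues, arose by duplication of 1 ancestral cluster. Adult fibroblasts keep a pattern of Hox expression that reflects the part of the body they come from. In the mouse mammary gland, Hoxc6 transcripts have been described in epithelium and stroma, and combined loss of Hoxa9, Hoxb9 and Hoxd9 impairs the expansion of the gland in pregnancy and lactation.

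Axl itself, read first as a check of the labels, had log2 intensities of 8.89 and 9.13 in FDG-high and 8.45 and 7.98 in FDG-low cells of heterozygotes, against 6.07 and 6.40 and 6.24 and 6.40 in homozygotes. It was lower in both homozygous groups, with a difference of -2.77 ± 0.20 (SE, n = 2 and 2 arrays) in FDG-high cells and an adjusted p of 0.080 in limma, and of -1.90 ± 0.20 in FDG-low cells with an adjusted p of 0.0065 in limma. Between 48.1% and 55.5% of probes exceeded the background of their array, the 95th percentile of 1324 probes for odorant receptors and similar genes, which stood at 6.09 to 6.20 on the log2 scale. Replicate arrays correlated at r = 0.963 to 0.980 over all genes, and the 2 FDG-low groups were the least alike, at r = 0.880 to 0.895. On the first heterozygous FDG-low array the summed normalised intensity of 15 fibroblast markers was 3833, against 9129 on its replicate and 14085 to 25025 on the other 6 arrays. All values below are log2 intensities after background correction with an offset of 50, a scale that understates differences of dim probes, and the number of arrays limits their precision. In bulk RNA, fewer cells of a type and less RNA per cell cannot be told apart.

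Promoters are shown for 4 Hox genes that the results return to, 3 of the Hoxa cluster and 1 of the Hoxd cluster. They were picked by name from 22 Hox genes with an entry in the promoter set used. That set held no entry for Hoxc6, Hoxc9 or Hoxc10. The sequences are the 250 bases before the annotated start, from RefSeq on GRCm38.p6, read 5′ to 3′ on the gene's strand, with TAAT or its reverse complement ATTA, the core bound by most homeodomains, in capitals.
Hoxa5: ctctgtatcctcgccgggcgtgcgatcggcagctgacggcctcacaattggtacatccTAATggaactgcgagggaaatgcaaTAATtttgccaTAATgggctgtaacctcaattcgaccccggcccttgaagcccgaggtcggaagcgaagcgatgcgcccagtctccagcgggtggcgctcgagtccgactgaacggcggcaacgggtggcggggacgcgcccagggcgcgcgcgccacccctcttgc
Hoxa7: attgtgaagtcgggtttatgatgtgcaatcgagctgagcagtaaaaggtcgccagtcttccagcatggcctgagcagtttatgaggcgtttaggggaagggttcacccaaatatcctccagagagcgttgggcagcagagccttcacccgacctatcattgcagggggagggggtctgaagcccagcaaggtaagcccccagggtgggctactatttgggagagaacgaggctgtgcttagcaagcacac
Hoxa9: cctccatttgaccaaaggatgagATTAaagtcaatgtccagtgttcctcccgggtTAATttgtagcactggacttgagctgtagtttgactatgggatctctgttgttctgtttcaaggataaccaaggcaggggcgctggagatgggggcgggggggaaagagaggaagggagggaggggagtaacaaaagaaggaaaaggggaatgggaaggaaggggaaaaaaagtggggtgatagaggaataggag
Hoxd8: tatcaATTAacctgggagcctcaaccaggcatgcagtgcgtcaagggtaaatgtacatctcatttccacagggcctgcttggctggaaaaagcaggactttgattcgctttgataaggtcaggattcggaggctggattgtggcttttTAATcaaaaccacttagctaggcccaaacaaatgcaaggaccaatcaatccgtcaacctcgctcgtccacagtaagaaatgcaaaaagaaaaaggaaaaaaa
Hoxa5 lies at chr6:52204588-52204837 on the minus strand, Hoxa7 at chr6:52218574-52218823 on the minus strand, Hoxa9 at chr6:52227371-52227620 on the minus strand and Hoxd8 at chr2:74704365-74704614 on the plus strand. Counted on both strands, with no overlapping matches, the core occurred 3 times before Hoxa5, 2 times before Hoxa9, 2 times before Hoxd8 and 0 times before Hoxa7. It is a common sequence, since 54.9% of 32851 mouse promoters of this length held it on at least 1 strand. The longer motif TGATNNAT, bound by Hox proteins together with Pbx, had 0 matches on either strand in these 4 windows and occurred in 7.68% of all promoters. CG dinucleotides, the targets of DNA methylation, numbered 28 before Hoxa5, 7 before Hoxa7, 3 before Hoxa9 and 6 before Hoxd8, against a median of 6. Such matches describe the letters of these windows only.

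Hox transcripts were sparse but present in every group. Of the 38 genes, 7 exceeded background on all 8 arrays, namely Hoxa7, Hoxb2, Hoxb3, Hoxc6, Hoxc9, Hoxc10 and Hoxd8, and 19 did so on both arrays of at least 1 group. Of all genes 39.6% exceeded background on all 8 arrays and 57.8% reached it on the 2 arrays of some group, whereas of 1212 odorant receptor genes 1.49% and 4.95% did. The 4 clusters differed in how their detected genes were spread. In the Hoxc cluster 3 of 9 genes were above background on all 8 arrays and 4 on no array, whereas in the Hoxa cluster 1 of 10 was above background on all 8 arrays and 0 on no array. The Hoxb cluster had 2 of 10 on all arrays and 1 on none, and the Hoxd cluster 1 of 9 on all arrays and 4 on none. By group, 12 Hox genes were above background on both arrays in FDG-high and 9 in FDG-low cells of heterozygotes, and 14 in each gate of homozygotes. Over all 16593 genes the counts were 8284, 8193, 8510 in homozygous FDG-high and 7629 in homozygous FDG-low cells.

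Detection did not follow the paralogue number in a simple way. Among the 7 genes of paralogues 1 to 3, 4 were above background on both arrays of a group, as were 8 of the 15 genes of paralogues 4 to 8 and 7 of the 16 of paralogues 9 to 13. Both paralogue 1 genes and both paralogue 12 genes failed to reach background on both arrays of any group. Paralogue 9 had 3 of its 4 genes detected in this sense, the exception being Hoxb9. Along chromosome 15 the Hoxc genes run in the order Hoxc13, Hoxc12, Hoxc11, Hoxc10, Hoxc9, Hoxc8, Hoxc6, Hoxc5 and Hoxc4. The constantly detected Hoxc10, Hoxc9 and Hoxc6 thus form a stretch interrupted by Hoxc8, which was above background on 3 of 8 arrays, and flanked by Hoxc11 and Hoxc5, which were above it on none.

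**Figure D1:**
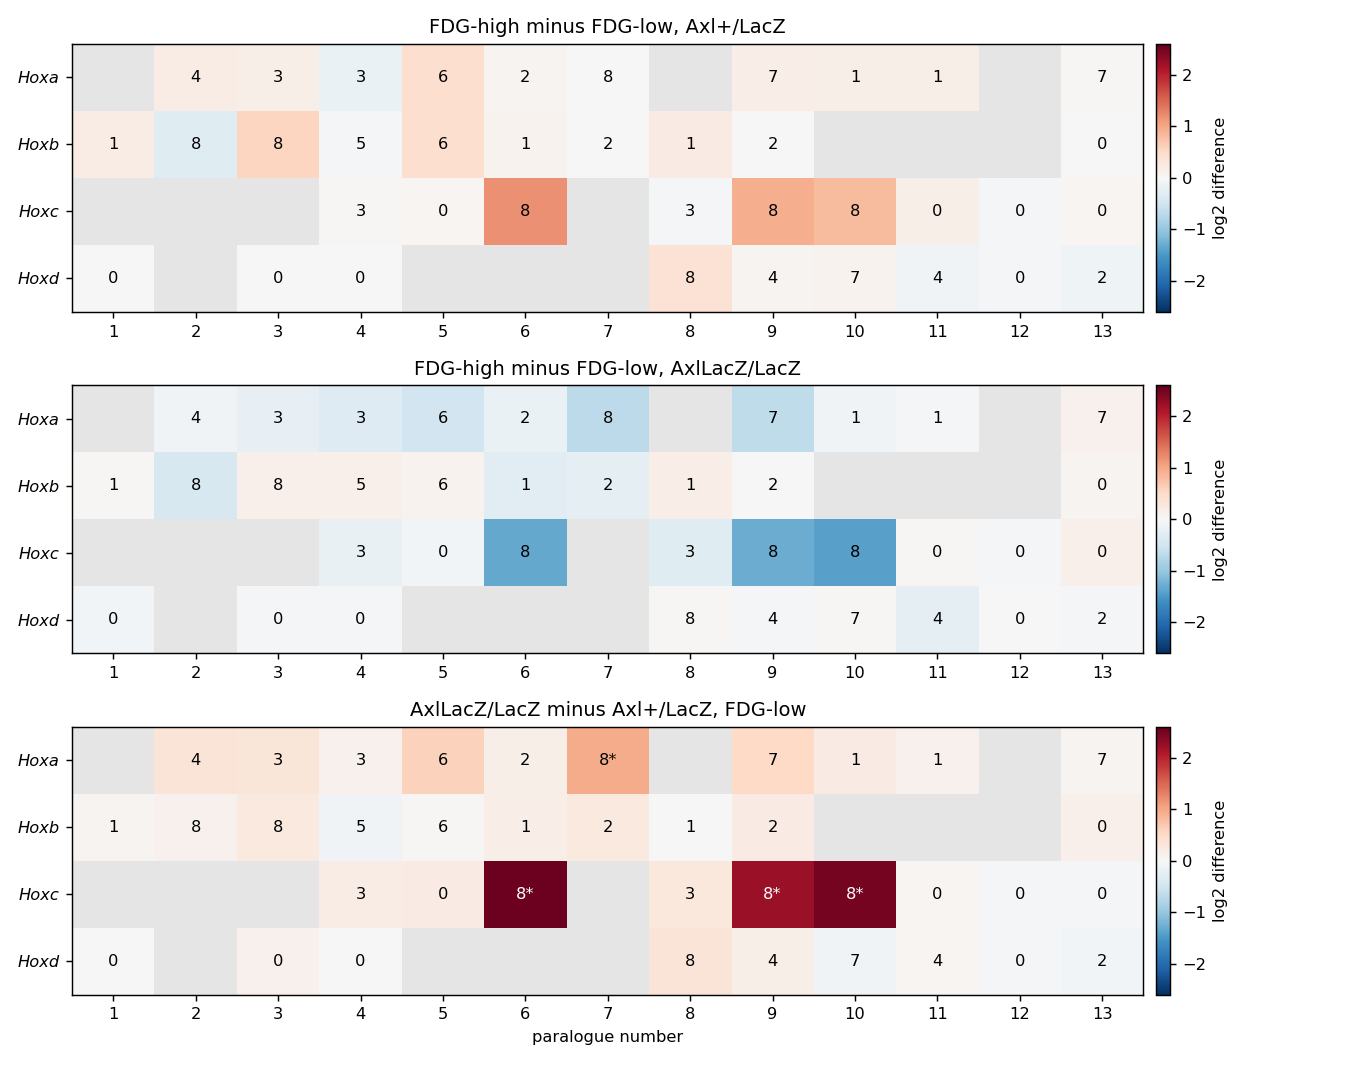
Cluster by paralogue maps of the log2 difference in 3 comparisons: FDG-high minus FDG-low in heterozygotes, the same in homozygotes, and homozygous minus heterozygous in FDG-low cells. The number in a cell is the count of arrays out of 8 on which the gene exceeded background, an asterisk marks an adjusted p under 0.05, and grey cells have no measured gene. The strongest colours lie at Hoxc6, Hoxc9 and Hoxc10, red in the first and last map and blue in the second, and the 4 asterisks, at these 3 genes and Hoxa7, are all in the last map.

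The Hoxc cluster held the members that varied most among the groups. Hoxc6, a central gene of the cluster, had values of 7.21 and 7.81 in FDG-high and 6.24 and 6.42 in FDG-low cells of heterozygotes, and of 7.24 and 7.88 in FDG-high and 8.92 and 8.84 in FDG-low cells of homozygotes. The FDG-low arrays were the lowest in heterozygotes and the highest in homozygotes, with the FDG-high arrays of both genotypes between them and no overlap between gates. Hoxc9, the paralogue 9 gene, read 7.63 and 8.04, then 6.22 and 7.55 in the same order for heterozygotes, and 8.05 and 7.64, then 9.22 and 9.05 for homozygotes. Its groups fell in the same order without overlap of the gates, although the heterozygous FDG-low arrays lay far apart, with an SD of 0.94. Hoxc10, a posterior gene, read 6.70 and 7.89 in FDG-high and 6.07 and 6.89 in FDG-low cells of heterozygotes, and 7.45 and 7.65, then 9.14 and 8.80 in homozygotes. Its gates overlapped in heterozygotes and were apart in homozygotes, where both FDG-low arrays exceeded all 6 others. On the first heterozygous FDG-low array this probe was below background and the gene's second probe was above it. Hoxc8, a central gene that lies between Hoxc9 and Hoxc6, stayed near background, at 6.01 and 6.02, 6.17 and 5.91 in heterozygotes and 5.97 and 6.04, 6.27 and 6.37 in homozygotes. It exceeded background on both arrays only in homozygous FDG-low cells.

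Of the Hoxa cluster, Hoxa7, a central gene, was read at 6.93 and 6.61 in FDG-high and 6.87 and 6.69 in FDG-low cells of heterozygotes, and at 6.95 and 7.17 and then 7.78 and 7.71 in homozygotes. The 2 homozygous FDG-low arrays stood above the other 6, which overlapped between gates in heterozygotes. Hoxa5, which in the mouse is needed for lung development and in which mutants have altered mammary glands, read 6.55 and 6.40, 6.07 and 6.01 in heterozygotes and 6.13 and 6.15, 6.83 and 6.45 in homozygotes. It was above background on 6 arrays, all but the 2 of heterozygous FDG-low cells, and its gates were apart in opposite directions in the 2 genotypes. Hoxa9, known for its part in blood stem cells and leukaemia, read 6.23 and 6.55, 6.24 and 6.18 in heterozygotes and 6.34 and 5.81, 6.71 and 6.75 in homozygotes, again highest on the 2 homozygous FDG-low arrays. The dim members Hoxa2, Hoxa3, Hoxa4 and Hoxa13 were above background on 4, 3, 3 and 7 arrays, counting any probe of a gene. The probe whose values are given was above it on 3 arrays for Hoxa2 and 5 for Hoxa13. In homozygous FDG-high cells Hoxa2 reached background by a different probe on each array, and by neither probe on both.

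Single values of these dim members lay between 5.84 and 6.58, and the replicates of Hoxa2 were far apart in both homozygous groups. Hoxa2, a patterning gene of the hindbrain and second pharyngeal arch, read 6.02 and 6.21, 5.93 and 5.93, 6.45 and 5.92, 5.97 and 6.58 over the groups in the same order. Hoxa3, needed for thymus and parathyroid, read 6.03 and 6.22, 6.06 and 5.89, 6.04 and 6.11, 6.30 and 6.29, with the homozygous FDG-low arrays highest. Hoxa4, a vertebral patterning gene, read 5.98 and 5.94, 6.15 and 6.10, 5.95 and 5.84, 6.26 and 6.21, so that both FDG-low groups were above both FDG-high groups. Hoxa13, a gene of the distal limb and genital tubercle, read 6.11 and 6.18, 6.14 and 6.09, 6.24 and 6.34, 6.11 and 6.26, and its gates overlapped in both genotypes.

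None of the Hoxb and Hoxd members detected on both arrays of a group had gates apart in opposite directions in the 2 genotypes, as Hoxc6 had. Hoxb2, a hindbrain patterning gene, read 6.73 and 6.29, 7.15 and 6.49 in heterozygotes and 6.34 and 6.70, 6.84 and 7.04 in homozygotes, with gates overlapping in heterozygotes. Hoxb3, its neighbour in the cluster, read 7.27 and 7.01, 6.87 and 6.30 in heterozygotes and 7.01 and 6.93, 6.90 and 6.77 in homozygotes. Over both genotypes all 4 FDG-high arrays were above all 4 FDG-low arrays for this brightest probe, while the gene's other probes overlapped between gates of heterozygotes. Hoxb4, studied as a regulator of blood stem cell growth, read 6.63 and 5.86, 6.57 and 6.01, 6.38 and 6.27, 6.12 and 6.27, its replicates lying far apart in heterozygotes. Hoxb5 read 6.80 and 6.44, 6.50 and 5.88 in heterozygotes and 6.29 and 6.33, 5.95 and 6.52 in homozygotes, with every pair of groups overlapping apart from the FDG-high pair.

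Among Hoxd genes, Hoxd8 was the one member above background on every array, at 6.72 and 7.11, 6.21 and 6.87 in heterozygotes and 6.49 and 7.36, 7.01 and 6.75 in homozygotes, and all 4 groups overlapped. Hoxd9, a posterior gene, read 6.22 and 5.94, 6.02 and 5.99, 6.11 and 6.16, 5.96 and 6.37. Its group means fell in the order seen for Hoxc6, but its gates overlapped in both genotypes. Hoxd10, which with its neighbours patterns the limb, read 6.22 and 6.47, 6.17 and 6.34, 6.14 and 6.24, 6.02 and 6.32. Hoxd11, a gene of the forearm and kidney, read 6.02 and 6.18, 6.13 and 6.25, 6.03 and 5.97, 6.27 and 6.21. These last 3 genes stayed near background and were above it on 4, 7 and 4 arrays.

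The other 19 Hox genes were not above background on both arrays of any group. Hoxc4 was above it on 3 arrays. Hoxa6, Hoxb7, Hoxb9 and Hoxd13 were above it on 2 each, and Hoxa10, Hoxa11, Hoxb1, Hoxb6 and Hoxb8 on 1 each. Hoxb13, Hoxc5, Hoxc11, Hoxc12, Hoxc13, Hoxd1, Hoxd3, Hoxd4 and Hoxd12 were above it on no array, so that transcripts of these 9 genes were not detectable at this signal. Values of the 19 ranged from 5.67 to 6.39.

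**Figure D2:**
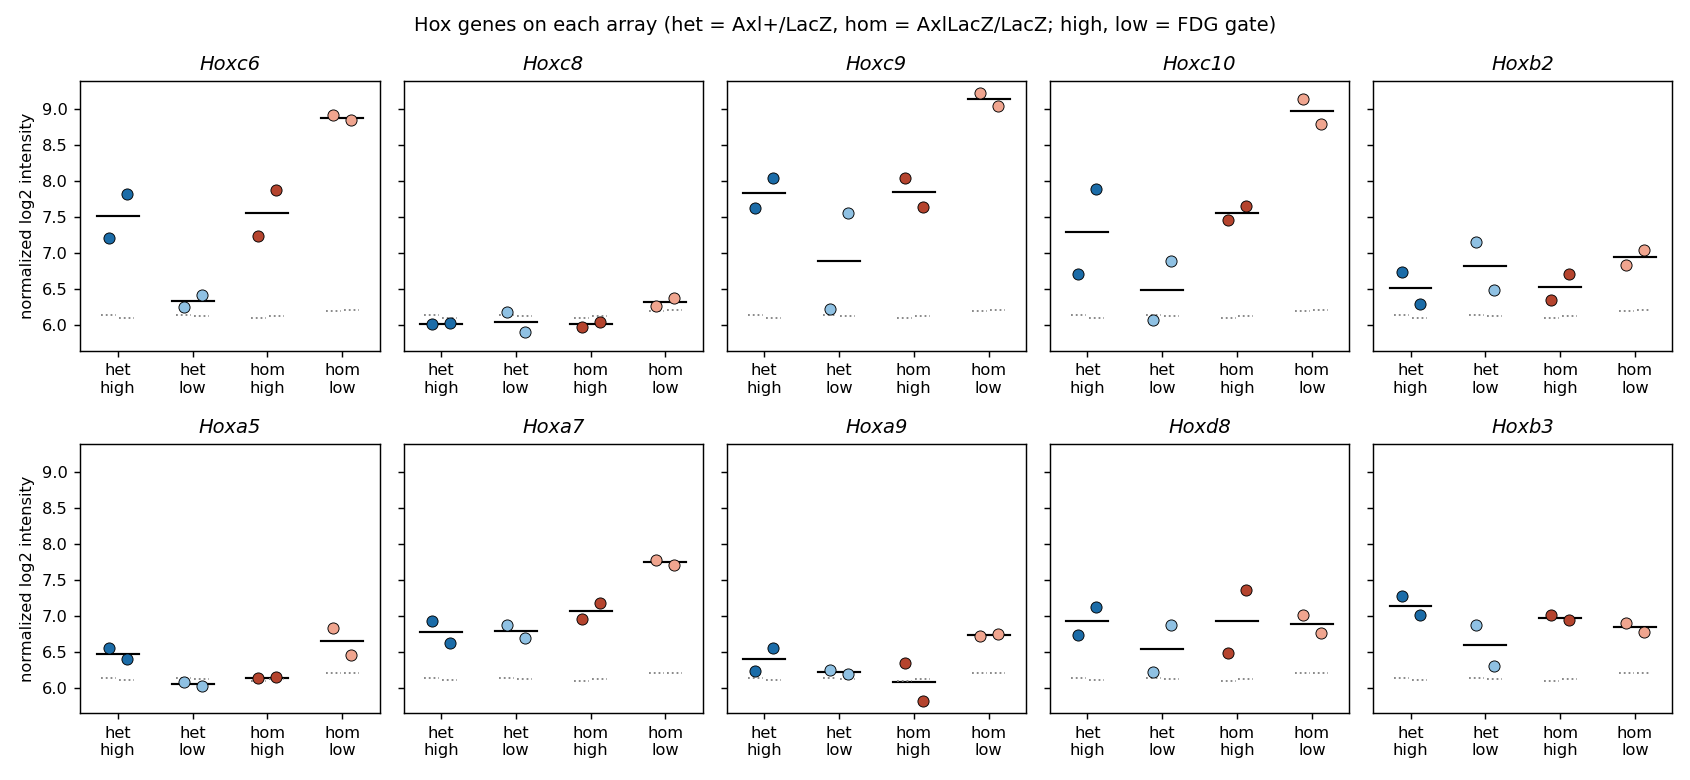
Log2 normalised intensity of 10 Hox genes on every array, by gate and genotype (2 arrays a group). Dots are arrays, lines are group means and the dotted grey line is the background of the arrays. Hoxc6, Hoxc9, Hoxc10 and Hoxa7 are highest on both homozygous FDG-low arrays, while Hoxd8 and Hoxb3 are not.

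The comparison of genotypes within FDG-low cells asked whether loss of the second Axl copy went with other Hox levels in the cells with the least reporter activity. Hoxc6, Hoxc9, Hoxc10 and Hoxa7 were higher in homozygotes, and these 4 of 38 passed an adjusted p of 0.05, against 3.78% of all genes that passed as higher, 4.63% that passed as lower and 8.41% in either direction. Hoxc6 was higher by 2.55 ± 0.26 (SE, n = 2 and 2 arrays), 5.86-fold, with an adjusted p of 0.0066 in limma. Hoxc10 was higher by 2.49 ± 0.43, 5.61-fold, with an adjusted p of 0.023 in limma. The probe behind that fold was above background on 1 of the 2 heterozygous FDG-low arrays, and the gene's second probe, above it on all 8 arrays, gave 1.68. Hoxc9 was higher by 2.25 ± 0.42, 4.75-fold, with an adjusted p of 0.027 in limma. Hoxa7 was higher by 0.96 ± 0.14, 1.94-fold, with an adjusted p of 0.016 in limma. No Hox gene passed as lower, and 8 of 38 had an unadjusted p under 0.05, against 22.4% of all genes. The calls rest on both homozygous FDG-low arrays: without the first, 0 Hox genes passed and the lowest adjusted p among them was 0.066, and without the second 0 passed and it was 0.057, the differences of Hoxc6 being 2.51 and 2.59. The number of all genes that passed fell from 1396 to 121 and 157 in these same fits, so the loss was not particular to Hox genes. Without the first heterozygous FDG-low array Hoxc10 lost its call at 2.08, and without the second Hoxa7 lost its call at 0.87.

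Over all 38 Hox genes, the 4 called ones included, 30 were higher and 8 lower in FDG-low cells of homozygotes. Of all genes 8345 were higher and 8248 lower, and of odorant receptor genes 687 and 525. The median difference of the Hox genes was 0.15, against 0.00 over all genes. The Hox median depended on the scale, at 0.0757 with 16 added before log2, 0.0852 without background correction and 0.304 with an offset of 16. The 2 homozygous arrays lay above both heterozygous arrays for 19 Hox genes and below for 2, where 24.8% of all genes lay above and 25.6% below. The differences were uneven among clusters. All 10 Hoxa genes had a positive difference by their brightest probe, with a range of 0.07 to 0.96 and a median of 0.27. Of them, 9 were without overlap. A second Hoxa10 probe gave -0.06 and a further Hoxa13 probe -0.10, while other probes of Hoxa2, Hoxa3, Hoxa9 and Hoxa13 gave 0.01 to 0.61. Hoxa2, Hoxa3, Hoxa5, Hoxa6, Hoxa10 and Hoxa11 were above background on neither heterozygous FDG-low array, and Hoxa10 and Hoxa11 on neither homozygous one. Hoxc genes ranged from -0.06 to 2.55 with a median of 0.21, Hoxb genes from -0.10 to 0.26 with a median of 0.13, and Hoxd genes from -0.08 to 0.34 with a median of 0.01. By paralogue, the median was 0.12 in numbers 1 to 3, 0.19 in 4 to 8 and 0.09 in 9 to 13, with 0, 2 and 2 genes passing. Array background was itself slightly higher on the homozygous FDG-low arrays, at 6.20 on both against 6.12 and 6.14 on the heterozygous FDG-low arrays, and its part in the small shifts was not tested.

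Hoxa5 came next in size among genes that did not pass, at 0.60 ± 0.14 or at least 1.43-fold, since it was not above background on either heterozygous FDG-low array, with an adjusted p of 0.053 in limma. Such a bound sets the brighter mean against the lowest signal called above background on each array of the dimmer group. Hoxa9 differed by 0.52 ± 0.19 with an adjusted p of 0.168 in limma. A second Hoxa9 probe, above background on 4 arrays, gave 0.61, and another, above it on none, gave 0.01. Hoxd8 differed by 0.34 ± 0.34, Hoxb3 by 0.25 ± 0.20 and Hoxb2 by 0.12 ± 0.26, each of the order of its error. The Hoxb3 difference was taken from its brightest probe, and its other probes gave 0.05 and -0.27.

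In heterozygotes, the comparison of gates asked how cells with the most reporter activity, read from a LacZ allele in the Axl locus, differed from those with the least. No Hox gene passed in limma, 3 of 38 had an unadjusted p under 0.05 (Hoxa5, Hoxb3 and Hoxc6), and 0.00603% of all genes passed, which is 1 gene, while 10.3% had an unadjusted p under 0.05. Hoxc6 was 1.18 ± 0.26 higher in FDG-high cells, 2.27-fold, with an adjusted p of 0.217 in limma. Hoxc9 differed by 0.95 ± 0.42 and Hoxc10 by 0.82 ± 0.43, with adjusted p of 0.522 and 0.610 in limma. Hoxc9 gave 0.28 without the first and 1.61 without the second heterozygous FDG-low array, and Hoxc10 gave 1.41 without the first and 0.22 without the second heterozygous FDG-high array, its second probe giving 0.40. Hoxb3 differed by 0.55 ± 0.20, while its other probes gave 0.25 and -0.04. Hoxa5 differed by 0.43 ± 0.14, at least 1.27-fold because its FDG-low arrays were not above background. Hoxa7 differed by -0.01 ± 0.14. Of the 38, 25 had a positive and 13 a negative difference with a median of 0.06, against 7910 and 8683 of all genes. The FDG-high arrays lay above the FDG-low arrays for 7 Hox genes and below for 2, against 18.5% and 20.5% of all genes.

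In homozygotes, 27 of the 38 Hox genes had a negative and 11 a positive gate difference, with a median of -0.06. Of all genes 8622 were negative and 7970 positive, and of odorant receptor genes 739 and 473. Hoxc6, Hoxc9, Hoxc10, Hoxa5 and Hoxa9 had the opposite sign to that in heterozygotes, while Hoxb3, Hoxb2, Hoxa4 and Hoxa7 had the same sign. Some of these signs are not settled, since the difference was smaller than its error. Examples are Hoxa9 at 0.18 ± 0.19 and Hoxa7 at -0.01 ± 0.14 in heterozygotes, and Hoxb3 at 0.14 ± 0.20 in homozygotes. Again no Hox gene passed in limma, while 10 of 38 had an unadjusted p under 0.05 (Hoxa4, Hoxa5, Hoxa7, Hoxa9, Hoxb6, Hoxc6, Hoxc8, Hoxc9, Hoxc10 and Hoxd11), against 0.392% of all genes that passed and 12.9% with such an unadjusted p. Hoxc10 had a difference of -1.42 ± 0.43, Hoxc6 of -1.32 ± 0.26 and Hoxc9 of -1.29 ± 0.42 between FDG-high and FDG-low cells, with adjusted p of 0.234, 0.112 and 0.263 in limma. In the Hoxa cluster, Hoxa7 gave -0.68 ± 0.14, Hoxa9 -0.66 ± 0.19 and Hoxa5 -0.50 ± 0.14, with adjusted p of 0.128, 0.218 and 0.208 in limma. Hoxa4 differed by -0.34 ± 0.09, Hoxc8 by -0.32 ± 0.11 and Hoxd11 by -0.24 ± 0.10, and all 3 were below background on both FDG-high arrays. FDG-high arrays lay below FDG-low arrays for 16 Hox genes and above for 4, against 23.3% and 21.3% of all genes. Cluster medians were -0.20 for Hoxa and Hoxc, 0.06 for Hoxb and -0.04 for Hoxd.

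Between genotypes within FDG-high cells, the Hox differences were small. No Hox gene passed in limma, 0 had an unadjusted p under 0.05, and 0% of all genes passed, 3.85% having an unadjusted p under 0.05. Among the 19 detected members differences ran from -0.33 ± 0.14 for Hoxa5 to 0.29 ± 0.14 for Hoxa7. Hoxc6 differed by 0.05 ± 0.26, Hoxc9 by 0.01 ± 0.42 and Hoxc10 by 0.25 ± 0.43. The homozygous arrays lay above the heterozygous arrays for 4 Hox genes and below for 4, against 14.4% and 15.6% of all genes.

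The difference between these 2 gate differences, homozygous minus heterozygous, was tested as an interaction. Hoxc6 had an interaction of -2.50 ± 0.37 with an adjusted p of 0.0503 in limma, just short of the threshold. Hoxc9 had -2.24 ± 0.59 and Hoxc10 -2.23 ± 0.60, with adjusted p of 0.155 and 0.166 in limma. Hoxa5 had -0.93 ± 0.20, Hoxa9 -0.84 ± 0.27 and Hoxa7 -0.67 ± 0.20, with adjusted p of 0.105, 0.226 and 0.207 in limma. Thus 0 of 38 Hox genes passed in limma, 8 had an unadjusted p under 0.05 (Hoxa3, Hoxa5, Hoxa7, Hoxa9, Hoxb6, Hoxc6, Hoxc9 and Hoxc10), and 0.814% of all genes passed, 0.579% with a positive and 0.235% with a negative interaction, 14.3% having an unadjusted p under 0.05. The interaction was negative for 31 Hox genes and positive for 7, with a median of -0.17. Over all genes it was negative for 8341 and positive for 8252, and over odorant receptor genes for 697 and 515. The gates were apart in both genotypes, higher in FDG-high cells of heterozygotes and lower in those of homozygotes, for 4 Hox genes (Hoxa5, Hoxb6, Hoxc6 and Hoxc9), against 5.61% of all genes. The gate comparisons share their arrays with the genotype comparisons, so these are not independent values. For 1 gene taken alone, 2 arrays against 2 cannot give a two-sided exact permutation p below 0.333.

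**Figure D3:**
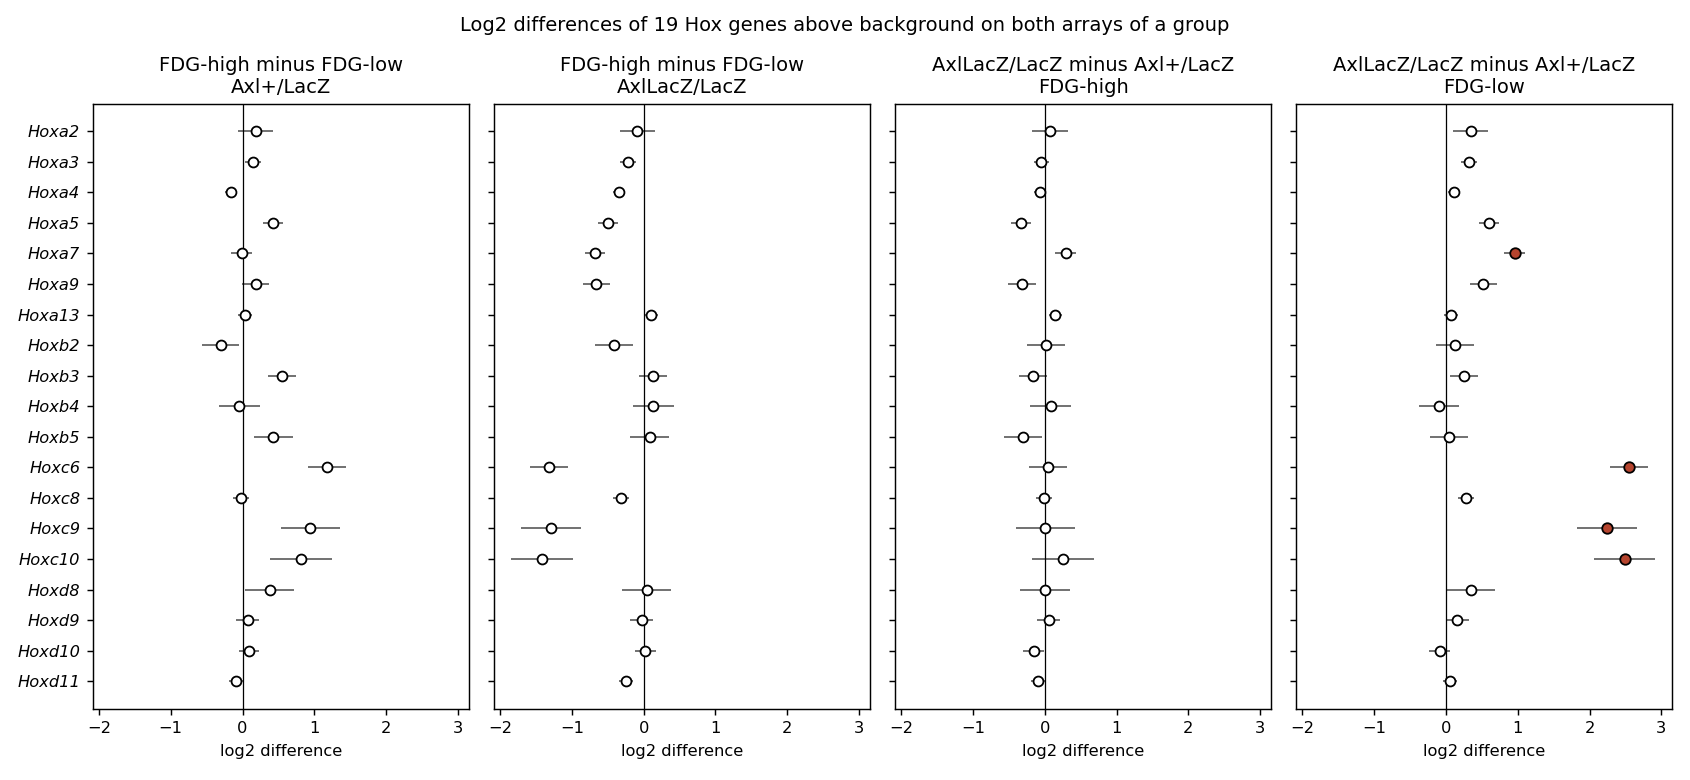
Log2 differences with standard errors for the 19 Hox genes with detection on each array of at least 1 group, in the 4 comparisons of gate and genotype (n = 2 arrays a group). Filled red points have an adjusted p under 0.05. Points passed only in the comparison of genotypes within FDG-low cells, for Hoxc6, Hoxc9, Hoxc10 and Hoxa7, and between genotypes in FDG-high cells those 4 genes lie at 0.01 to 0.29, with Hoxa7 at the upper end.

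Markers of fibroblasts and of epithelium moved with several of these differences. Of 16 fibroblast markers listed 15 were measured, and 13 of these were above background on all 8 arrays. All 15 had a positive gate difference in heterozygotes, with a median of 1.89. In limma 0 of them passed and 14 had an unadjusted p under 0.05, against 0.00603% and 10.3% of all genes. In FDG-low cells 6 of 15 rose in homozygotes relative to heterozygotes, against 3.78% of all genes, and the median was 1.90. Their summed intensity was 14085 to 25025 in FDG-high and 3833 to 9129 in FDG-low cells of heterozygotes, and 16421 to 20506 and 19966 to 20739 in those of homozygotes. The 13 measured epithelial markers summed to 7604 to 7619, 12119 to 13138, 6367 to 9140 and 3330 to 3357 in the same order. Of these 13 markers 11 fell in FDG-low cells of homozygotes, against 4.63% of all genes, with a median of -1.94. The 10 measured basal epithelial markers summed to 12698 to 15650, 6605 to 11432, 10400 to 14004 and 3402 to 3771 in the same order. Between gates of heterozygotes they went the opposite way to those 13. The 6 measured luminal progenitor markers summed to 1985 to 3033, 4832 to 6278, 2377 to 3302 and 931 to 1086. The 5 pericyte markers summed to 763 to 1127, 531 to 661, 715 to 842 and 709 to 748. The part of all these markers in the Hox differences was not tested. Fibroblast markers ranged from 1.00 to 2.64 between gates of heterozygotes, where Hoxc6, Hoxc9 and Hoxc10 gave 0.82 to 1.18, and from 0.73 to 2.75 between genotypes in FDG-low cells, where the 3 genes gave 2.25 to 2.55. Between gates of homozygotes the markers ranged from -0.68 to 0.77 with a median of -0.35, and the 3 genes gave -1.29 to -1.42. All 5 measured leukocyte markers were below background on every array, and the 5 measured endothelial markers summed to 384 to 560 over the arrays. The 5 skeletal muscle markers summed to 361 and 386 on the homozygous FDG-low arrays and to 284 to 300 on the other 6. Of these 5, Tnnt3 was above background on the 2 homozygous FDG-low arrays and rose there, and 4 were above background on no array.

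**Figure D4:**
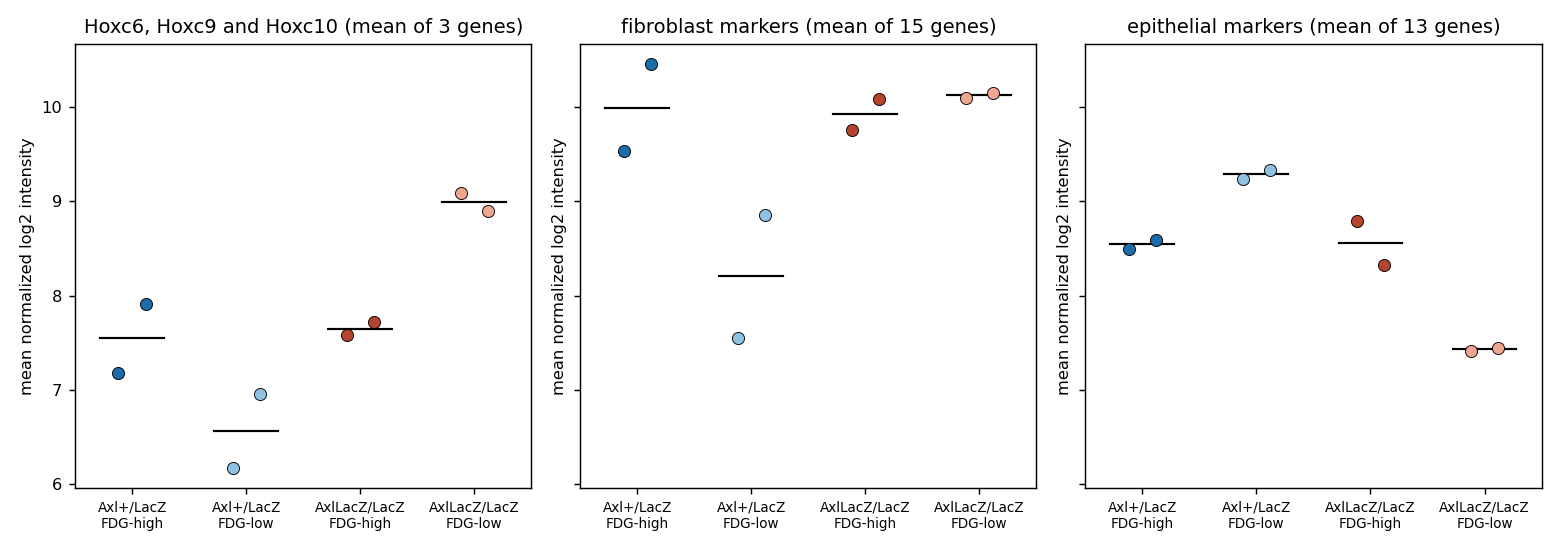
Mean log2 intensity on each of the 8 arrays of Hoxc6, Hoxc9 and Hoxc10, of 15 fibroblast markers and of 13 epithelial markers, on a shared axis. Dots are arrays and lines are group means. The Hoxc mean is 6.18 and 6.95 on the heterozygous and 9.09 and 8.90 on the homozygous FDG-low arrays, where the fibroblast mean is 7.55 and 8.86 against 10.10 and 10.15 and the epithelial mean is 9.24 and 9.33 against 7.41 and 7.45.

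Genes that work with or act on Hox genes were counted from lists. The TALE homeodomain proteins of the Pbx, Meis and Pknox families bind DNA together with Hox proteins, and 2 of 7 measured members, Meis2 and Meis1, rose in FDG-low cells of homozygotes, where 3.78% of all genes rose. Meis2 read 6.64 and 7.98, 6.28 and 6.02 in heterozygotes and 6.56 and 6.97, 8.15 and 8.32 in homozygotes, so that its homozygous FDG-low arrays stood above all others. The genotype difference in FDG-low cells was 2.09 ± 0.41 for Meis2 and 0.76 ± 0.16 for Meis1, with adjusted p of 0.032 and 0.039 in limma, and it was -0.15 ± 0.33 for Pbx2 and 0.60 ± 0.25 for Pknox2, which did not pass. The gate difference of Meis2 was 1.16 ± 0.41 in heterozygotes and -1.47 ± 0.41 in homozygotes, neither passing.

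Polycomb proteins hold Hox clusters silent and Trithorax proteins keep them active. Of 19 measured genes of both groups, 1 rose and 1 fell in FDG-low cells of homozygotes, a share near the 8.41% of all genes. Eed, a core subunit of Polycomb repressive complex 2, rose by 0.81 ± 0.08 with an adjusted p of 0.0066 in limma, and was named after its value was seen. Pcgf2, a subunit of Polycomb repressive complex 1, fell by 0.60 ± 0.11 on the log2 scale with an adjusted p of 0.029 in limma. The histone H3K27 demethylase gene Kdm6b differed by 0.59 ± 0.17, Phc1 of Polycomb repressive complex 1 by -0.17 ± 0.20 and Wdr5 of the Trithorax-type methyltransferase complexes by 0.05 ± 0.25, and none of these 3 passed. Caudal factors and retinoic acid switch on Hox genes in the embryo, and of 12 measured genes of this list 1 rose and 1 fell, where 3.78% and 4.63% of all genes did. Cyp26b1, an enzyme that breaks down retinoic acid, rose by 0.60 ± 0.09 with an adjusted p of 0.018 in limma. Crabp2, which carries retinoic acid to its receptors, fell by 0.92 ± 0.11 on the log2 scale with an adjusted p of 0.0092 in limma. Egr2, which activates Hoxa2 and Hoxb2 in the hindbrain, differed by 1.34 ± 0.36 and Rara, a retinoic acid receptor gene, by 0.34 ± 0.16 without passing, and Cdx1, Cdx4 and Cyp26a1 were above background on no array.

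Genes that flank the clusters on the chromosome did not pass. Of 13 measured neighbours 0 passed in limma in FDG-low cells between genotypes, where 8.41% of all genes passed. The list is too short to tell 0 of 13 from that share. Differences ran from -0.55 ± 0.25 for Hibadh to 0.59 ± 0.37 for Snx10, with a median of -0.04. Tax1bp1, also beside the Hoxa cluster, gave -0.08 ± 0.16 and Lnpk, beside the Hoxd cluster, gave 0.26 ± 0.12.

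Other developmental transcription factors with regional expression moved in both directions. Of 24 measured, 6 rose and 4 fell in FDG-low cells of homozygotes, where 3.78% of all genes rose and 4.63% fell, and the median was 0.12. Shox2, a short stature homeobox gene of the limb and heart, read 7.40 and 7.63, 6.22 and 6.33 in heterozygotes and 7.01 and 7.94, 8.68 and 8.53 in homozygotes. As for Hoxc6, the FDG-low arrays were the lowest in heterozygotes and the highest in homozygotes, with the FDG-high arrays between them. Shox2 rose by 2.33 ± 0.29 with an adjusted p of 0.0093 in limma. Tbx18, a T-box gene of mesenchyme, rose by 1.92 ± 0.29, and Tbx15, Prrx1, Dlx3 and Msx1 also rose, by 0.66 to 1.75. Dlx5, a distal-less homeobox gene, fell by 2.00 ± 0.37 on the log2 scale with an adjusted p of 0.027 in limma. Irx5, an Iroquois homeobox gene, fell by 1.49 ± 0.20, and Irx3 and Barx2 fell by 1.06 and 0.92. Tbx15, Prrx1, Dlx3, Msx1, Irx3 and Barx2 were named after their values were seen. In the gate comparisons of heterozygotes and of homozygotes, the genotype comparison within FDG-high cells and the interaction, 0 genes of these 5 lists passed in limma, where the last list had 5, 8, 1 and 10 of 24 genes with an unadjusted p under 0.05, against 10.3%, 12.9%, 3.85% and 14.3% of all genes, and each of the other 4 lists had 0 to 3.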

How the data were processed

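Biotin-labelled cRNA of 8 samples was hybridised to Illumina mouse bead arrays, per the labels' protocols. The authors deposited linear probe intensities in 1 value table of 25697 probes; no source used here states how they were background corrected or scaled, although the design text speaks of log2 quantile normalised values. The values were linear and their medians differed between arrays (115.7 to 126.7), so normexp correction with an offset of 50, quantile normalisation and log2 were applied (limma 3.58.1, R 4.3.3). The platform annotation gave 1 symbol to 23978 probes and none to 1719, and 23962 matched the reference by gene ID. The probe with the highest mean stood for each of 4777 genes with several probes, 9 of them Hox genes, which mixes no probes but ignores their disagreement. One fit held a coefficient for each of 4 groups, with 4 residual and 2.36 prior degrees of freedom, and p-values were adjusted by Benjamini-Hochberg over all 16593 genes, with a threshold of 0.05. The fit was tested on simulated data. Background was set per array at the 95th percentile of 1324 receptor probes, and 1 probe over it sufficed for a gene. All Hox genes above background on both arrays of a group were named with their values, the others by counts; from each related list up to 4 detected genes with the widest gate difference were named. Members, lists and tests were chosen with earlier results of these data known. The rank product test of the design text was not run. All arrays sat on 1 chip per the labels' array positions.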

Additional observations from a re-analysis of the deposited data

How the results depend on the processing

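Over 17 alternatives of processing, fit and left-out arrays, the 4 called Hox differences kept their sign, whereas differences near 0 that did not pass changed theirs under some, among them Hoxc6 and Hoxc9 between genotypes in FDG-high cells, at -0.27 to 0.37 and -0.20 to 0.22, and Hoxa7 between gates of heterozygotes, at -0.17 to 0.15. The gate comparisons and the genotype comparison in FDG-high cells gave 0 Hox calls under each. In FDG-low cells 4 Hox genes passed between genotypes; leaving out 1 array gave 0 to 4, with 0 without either homozygous FDG-low array, and 5 passed with an offset of 16, with the mean of all probes, with an intensity trend and with the replicate block, Hoxa5 being added. With only the arrays of the 2 groups fitted Hoxc9 lost its call, at an adjusted p of 0.051 in limma, and Hoxa9 gained one, at 0.044 in limma. For Hoxc6 the difference ranged from 1.87 to 3.24 and the adjusted p from 8.6e-04 to 0.066 in limma. The interaction gave 0 Hox calls in the fit reported and 1, Hoxc6, with an offset of 16, with dim genes left out, with an intensity trend and with the replicate block, where its adjusted p was 0.043 in limma; leaving out 1 array gave 0 to 1. The replicate numbers were not taken as pairs: deviations of same-numbered arrays correlated at 0.40 between the heterozygous gates but at 0.01, 0.07 and -0.05 for the other pairs of groups, and no label states a shared pool. The median over the Hox genes moved most with an offset of 16, to 0.13 and -0.14 for the gates of heterozygotes and homozygotes, 0.30 for the genotypes in FDG-low cells and -0.36 for the interaction. Without background correction the last 2 medians were 0.0852 and -0.0946, and with 16 added before log2 they were 0.0757 and -0.0834. With the 99th percentile as background, 2 Hox genes were above it on all 8 arrays and 10 on both arrays of a group. The median was not taken with dim genes left out, since members were then missing. Signal over background limits the 19 dim Hox genes, for which a missing difference was not detectable.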
